A study of Mus musculus with 12 samples.

Results

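The miR-34 family and the group of miR-192, miR-194 and miR-215 are the classical microRNAs switched on by the tumour suppressor p53. Their 8 mature products in mouse, mmu-miR-34a-5p, mmu-miR-34b-5p, mmu-miR-34b-3p, mmu-miR-34c-5p, mmu-miR-34c-3p, mmu-miR-192-5p, mmu-miR-194-5p and mmu-miR-215-5p, were followed with age in skeletal muscle. They were taken by name from a table of 1900 mature miRNAs, in which they fill 9 rows because miR-194-5p has a row for each of its genomic copies. At least 1 library had a value above 0 for 877 of these miRNAs. The samples were gastrocnemius, the large calf muscle, of male C57BL/6 mice that carried no stated allele or treatment, 6 animals at 6 months (young) and 6 at 24 months (aged), with 1 small RNA library for each animal. Whole muscle was used, so fewer cells of a type and less RNA per cell cannot be told apart.

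p53 is a transcription factor that responds to DNA damage and other stress, and the miR-34 genes are among its direct targets. The miR-34 family in turn represses mRNAs for cell cycle and survival proteins, among them cyclin-dependent kinases, Bcl2 and the deacetylase Sirt1. miR-34a is made in many tissues, whereas miR-34b and miR-34c come from one shared transcript best known from testis and multiciliated cells. miR-192, miR-194 and miR-215 are abundant in liver, gut and kidney epithelium and have been tied to p53-dependent cell cycle arrest.

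A miRNA finds its targets mainly through its seed, bases 2 to 8 from the 5′ end, so the mature sequences are shown here by shared seed, with the seed in capitals. Sequences were found for 7 of the 8 members, all but miR-34c-5p, and are those of RefSeq on GRCm38.p6, written 5′ to 3′. The first seed is that of the 5p arms of miR-34.
mmu-miR-34a-5p: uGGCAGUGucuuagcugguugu
mmu-miR-34b-5p: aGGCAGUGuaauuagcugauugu
The 3p arms of miR-34b and miR-34c share another seed, and the sequences are the same at 17 of 22 positions.
mmu-miR-34b-3p: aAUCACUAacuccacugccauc
mmu-miR-34c-3p: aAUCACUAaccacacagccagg
miR-192-5p and miR-215-5p, made on different chromosomes, share a further seed.
mmu-miR-192-5p: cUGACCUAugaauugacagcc
mmu-miR-215-5p: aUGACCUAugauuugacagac
miR-194-5p, made beside both, has a seed of its own.
mmu-miR-194-5p: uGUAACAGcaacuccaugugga

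The seed GGCAGUG was found in 4 of the 1603 table miRNAs that had a RefSeq sequence, which were miR-34a-5p, miR-34b-5p and the miR-449 relatives miR-449a-5p and miR-449c-5p. miR-34c-5p and miR-449b had no RefSeq sequence and so were not part of this count, which says nothing of their seeds. The seed UGACCUA was found only in miR-192-5p and miR-215-5p. Counted from the 5′ end, miR-215-5p differed from miR-192-5p by the substitutions C1A, A12U and C20A, all outside the seed.

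The genes lie at 4 places in the genome. Mature miR-34a-5p lies at chr4:150068473-150068494 on the plus strand, between the protein-coding genes H6pd and Gpr157, inside an exon of the unconfirmed transcript Gm37795. miR-34b-5p (chr9:51103610-51103632) and miR-34b-3p (chr9:51103574-51103595) come from the minus strand, with miR-34c-3p at chr9:51103044-51103065 on the same strand. The hairpins of miR-34b and miR-34c are 451 bases apart, and both lie within an intron of Btg4, which is transcribed in the opposite direction. miR-192-5p (chr19:6264857-6264877) and one copy of miR-194-5p (chr19:6264658-6264679) come from hairpins 115 bases apart, outside annotated genes between Atg2a and Ehd1. The other copy of miR-194-5p (chr1:185313325-185313346) and miR-215-5p (chr1:185313610-185313630) come from hairpins 195 bases apart. Both of these are inside the antisense transcript 2010103J01Rik, miR-194-5p in an intron and miR-215-5p in an exon, and opposite to an intron of Iars2.

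Levels are given as FPKM, the reads of a miRNA scaled to its length and to the mapped reads of its library. The low values fell in steps of whole reads, which gave back the reads and the depth. The young libraries had 212037 to 6526695 implied mapped reads and the aged ones 120437 to 7761592, and 1 read of a miRNA of 22 nucleotides was worth 5.86 FPKM in the deepest library (aged replicate 3) but 377 FPKM in the shallowest (aged replicate 5). All 6 fixed muscle miRNAs, among them miR-1a-3p and miR-133a-3p, were detected, and their summed level was 4.59e+06 to 7.38e+06 FPKM in young and 4.50e+06 to 5.33e+06 FPKM in aged libraries. Differences with age were tested by limma on log2(FPKM + 48.2), with Benjamini-Hochberg adjustment over the 482 miRNAs that 5 or more of the 12 libraries held above 0. On this scale changes of rare miRNAs are understated, and the median change of all miRNAs tested was 0.07.

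miR-34a-5p and miR-34c-5p had the largest differences with age among the tested members in the reported fit, both towards higher levels in aged muscle, and miR-215-5p was detected in more aged than young libraries. miR-192-5p, by far the most abundant member, had a small fitted difference, and that of miR-194-5p was near 0 with a wide interval. Of the 8 members 5 could be tested, and 0 of them passed an adjusted p of 0.05, against 2.9% of all miRNAs tested. By the exact permutation test with the same adjustment 0 members passed, and 0 of all 482 miRNAs. Its smallest possible p, 0.00216, reached by miR-34a-5p, became 0.080 after adjustment, so no miRNA could pass here and nothing is concluded from it. At an unadjusted p under 0.05, 3 of the 5 passed, against 12.9% of all miRNAs tested. At the first thresholds of the study, an unadjusted p under 0.05 with a change of 1.5-fold or more, the same 3 members, miR-34a-5p, miR-34c-5p and miR-215-5p, were higher in aged muscle, against 4.15% of all miRNAs tested. With a bound of 2-fold, as was later set for raised miRNAs, 2 members passed, against 2.7%, and miR-215-5p at 1.96-fold did not. That size depends on the scale used here: with 1 instead of 48.2 FPKM added before the log2, its log2 change was 4.26, past the bound. The members were chosen with results of these libraries known, so these counts are not independent evidence of a direction. In addition, miR-215-5p entered the test only through its aged libraries, so its place in these counts is no support for a rise.

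**Figure D1:**
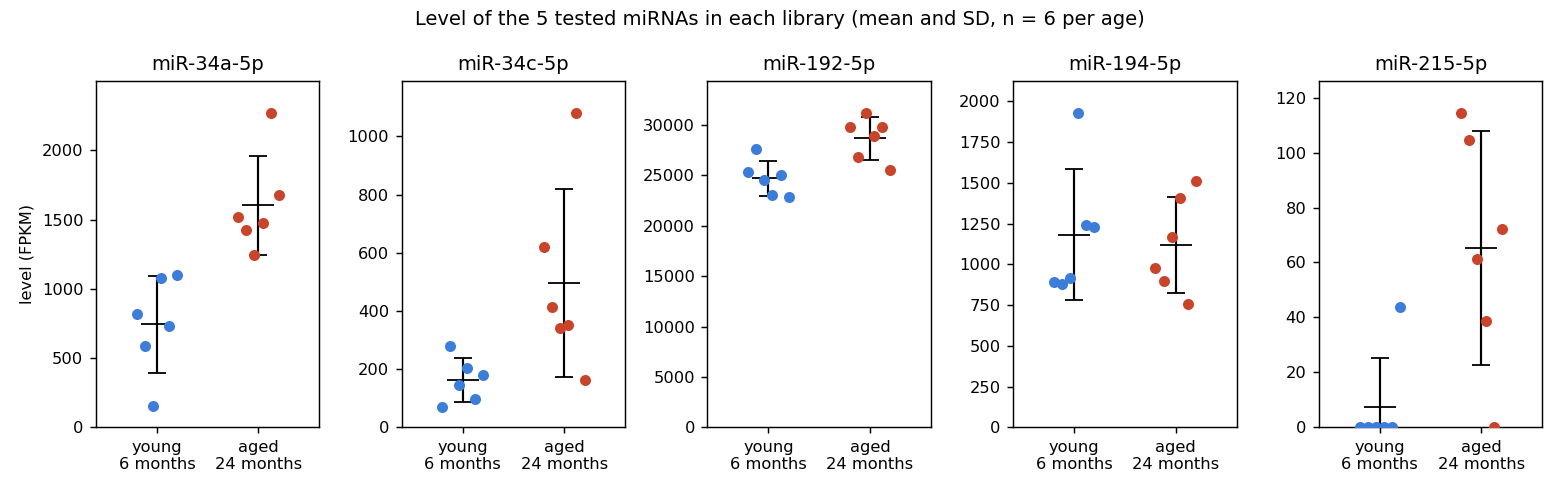
Level in FPKM (vertical axis, from 0) of the 5 tested members in each young (blue) and aged (red) library, with the mean and SD of 6 libraries in black. For miR-34a-5p the 6 aged points all lie above the 6 young points, whereas the groups overlap for the other 4.

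miR-34a-5p, the family member made in most tissues, was seen in all 12 libraries. Its level was 152 FPKM in the lowest young library, 775 at the median and 1098 in the highest, against 1243, 1499 and 2272 FPKM in aged muscle. Every aged library was above every young one, so the groups did not overlap. This held for 1 of the 5 tested members and for 0.415% of all miRNAs tested, which is 2 miRNAs. The other was miR-25-3p, one of the listed miRNAs that bind the p53 mRNA. For miR-34a-5p young muscle had a mean of 744 ± 351 FPKM (SD, n = 6), and aged muscle 1603 ± 357 FPKM (SD, n = 6). The fitted log2 change was 1.23 (SE 0.35, 95% interval 0.50 to 1.96), or 2.34-fold, with an adjusted p of 0.0626 by limma, and miR-34a-5p stood at place 15 of 482 by p, directly after the 14 miRNAs that passed. The two-sided exact permutation test of this miRNA alone gave p = 0.00216, the smallest value that the splits of 6 against 6 allow. By abundance it moved from a mean place of 191 ± 43.9 (SD, n = 6) among the miRNAs of a young library to 143 ± 8.69 (SD, n = 6) in an aged one.

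The extremes of miR-34a-5p came from shallow libraries. The lowest young value, in replicate 3, was a single read, and the highest aged value, in replicate 5, was 6 reads. Without young replicate 3 the log2 change was 0.87, with an adjusted p of 0.0803 by limma, and without the 3 shallowest libraries it was 0.85, with an adjusted p of 0.0718. The adjusted p fell below the threshold without young replicate 4 (0.0339) and without young replicate 6 (0.0419). In the deepest library of each age the levels were closer together, 158 reads and 1098 FPKM in young replicate 6 against 212 reads and 1243 FPKM in aged replicate 3, a ratio of 1.13. These were 24.2 reads per 1000000 mapped reads (RPM, exact 95% Poisson interval 20.6 to 28.3) and 27.3 (23.8 to 31.2), so the deepest pair overlapped within counting error. In the other 5 libraries of each age, the young reads made 14.8 RPM (10.0 to 21.2, from 30 reads) and the aged reads 34.0 RPM (29.4 to 39.2), and these intervals did not overlap. Such intervals cover counting error only. Depth itself differed with age, with a median of 451432 implied mapped reads in young and 1340550 in aged libraries, and with depth as a covariate the log2 change of miR-34a-5p was 1.21 (adjusted p = 0.125 by limma).

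**Figure D2:**
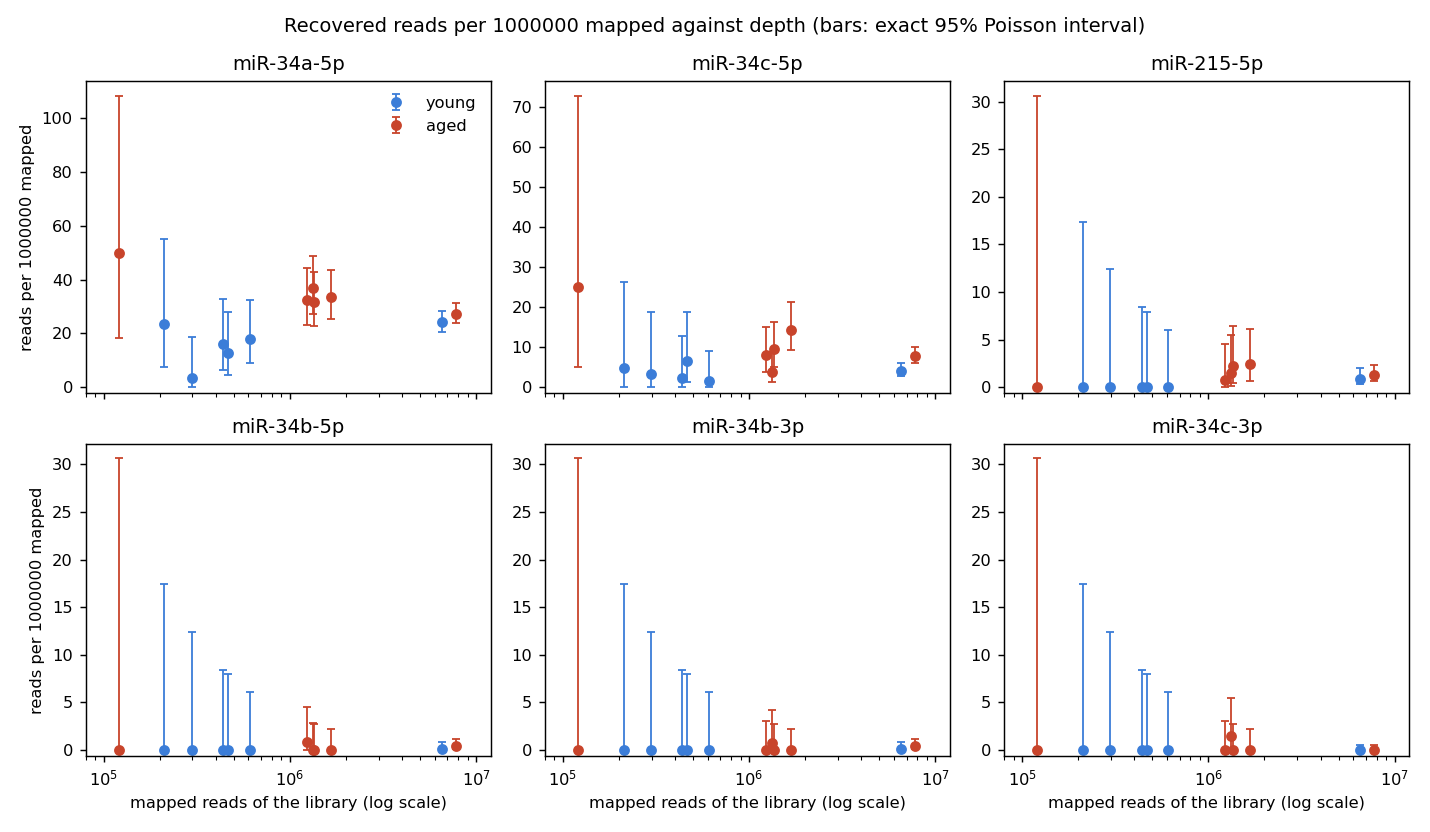
Recovered reads per 1000000 mapped reads (vertical axis) against the mapped reads of the library (horizontal axis, log scale) for 6 members in young (blue) and aged (red) libraries, with exact 95% Poisson intervals. The intervals narrow towards the deepest library of each age on the right, where miR-34a-5p was at 24.2 (young) and 27.3 (aged), and the members in the lower row stay near 0.

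miR-34c-5p had a fitted change of the same size as miR-34a-5p at a lower level. Its level was 71.0 FPKM in the lowest young library, 162 at the median and 280 in the highest, against 163, 383 and 1082 FPKM in aged muscle. In 5 of 6 aged libraries it was above the highest young value, and aged replicate 6, at 163 FPKM, lay among the young libraries. Means were 163 ± 75.7 FPKM (SD, n = 6) for the young and 495 ± 323 FPKM (SD, n = 6) for the aged libraries. The log2 change was 1.25 (SE 0.49, 95% interval 0.24 to 2.25), the adjusted p by limma was 0.215, and the exact permutation test gave p = 0.0108. The values rest on few reads: 4 of the 6 young libraries held 1 read each, and the highest aged value, again in replicate 5, was 3 reads. In the deepest pair miR-34c-5p was at 180 FPKM (27 reads) in the young and 340 FPKM (61 reads) in the aged library. Their Poisson intervals, 2.73 to 6.02 and 6.01 to 10.1 RPM, met at their ends. Over all libraries of an age the values came to 3.98 RPM (2.75 to 5.56) and 8.62 RPM (7.12 to 10.3).

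The members that share the transcript of miR-34c-5p were at the limit of detection. miR-34b-5p had 1 read in young replicate 6, 3 in aged replicate 3 and 1 in aged replicate 4. miR-34b-3p had 1 read in young replicate 6, 3 in aged replicate 3 and 1 in aged replicate 6. miR-34c-3p had 2 reads, both in aged replicate 6. No library held more than 3 reads of any of the 3, so they were not tested and no fold change is given. The 6 young libraries together held 0 reads of miR-34c-3p among 8549018 mapped reads, which allows up to 0.351 RPM at a limit of 3 reads, while the 2 aged reads made 0.149 RPM (0.0180 to 0.537), so a difference was not detectable at this depth.

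The hairpins differed in how their arms were represented. Over all 12 libraries, 150 of the 152 reads of the miR-34c hairpin were 5p (98.7%, exact Clopper-Pearson 95% interval 95.3 to 99.8), and so were 594 of the 600 reads of miR-34a (99.0%, 97.8 to 99.6). For miR-34b the reads were 5 and 5, a share of 50.0% (18.7 to 81.3), which is known only roughly. miR-192 had 12637 reads of the 5p and 3 of the 3p arm, the miR-194 hairpins 571 and 2, and miR-215 26 and 0. None of these hairpins had both arms above 0 in 5 libraries, so no change of arm balance with age was tested.

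miR-192-5p was at place 53 of all miRNAs by mean level and made up 87.8 to 95.3% of the summed FPKM of the members in young libraries and 87.9 to 91.6% in aged ones. Its level was 22851 FPKM in the lowest young library, 24749 at the median and 27554 in the highest, against 25532, 29331 and 31216 FPKM in aged muscle. In 4 of 6 aged libraries it was above the highest young one, and in 6 of 6 above the young median, but the groups overlapped. The young mean was 24712 ± 1731 FPKM (SD, n = 6) and the aged mean 28658 ± 2106 FPKM (SD, n = 6). The log2 change was 0.21 (SE 0.11, 95% interval -0.01 to 0.43). The adjusted p by limma was 0.398 and the exact permutation p was 0.0108. Its 75 to 5088 reads per library leave far less counting error than for the other members, and in the deepest pair it was at 22851 (young) and 31216 FPKM (aged), a ratio of 1.37. The remaining libraries were closer, at 534 RPM (502 to 566) in young and 586 (566 to 606) in aged muscle.

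miR-194-5p, made from the neighbouring hairpins, did not share this pattern. Its level was 882 FPKM in the lowest young library, 1072 at the median and 1931 in the highest, against 755, 1071 and 1510 FPKM in aged muscle. The medians were almost equal and 3 of 6 aged libraries lay above the young median. The log2 change was -0.06 (SE 0.28, 95% interval -0.63 to 0.51) with an adjusted p of 0.955 by limma and an exact permutation p of 0.801, and its sign turned without young replicate 4 (0.09) or aged replicate 5 (0.04). The interval leaves room for a change of about the size seen in miR-192-5p in either direction. Both copies give an identical mature sequence, and the authors' rows for them held 263 and 308 of the recovered reads, a share of 46.1% in one row that ran from 33.3 to 66.7% in single libraries, so the rows cannot assign reads to a copy.

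miR-215-5p, with the seed of miR-192-5p, was rare. It was above 0 in 1 of 6 young libraries, the deepest, at 43.7 FPKM (6 reads). In aged muscle it was above 0 in 5 of 6 libraries, at 38.9 to 115 FPKM (1 to 10 reads), and 0 in the shallowest. The aged and young libraries overlapped. The log2 change was 0.97 (SE 0.37, 95% interval 0.21 to 1.74), with an adjusted p of 0.201 by limma and an exact permutation p of 0.0281, and this size depends on the pseudocount: between a pseudocount of 1 and one of 482 FPKM it ran from 4.26 to 0.16. miR-215-5p met the filter of 5 libraries above 0 only through its aged libraries, so this fit is no independent support for a rise. The 5 young libraries without a read held 2022323 mapped reads together, which allows up to 1.48 RPM at a limit of 3 reads, within the interval of the aged libraries other than the deepest (0.841 to 3.23 RPM, from 10 reads). In the deepest pair it was at 0.919 (0.337 to 2.00) and 1.29 (0.618 to 2.37) RPM, which overlap. miR-215-5p was at most 0.389% of the summed FPKM of miR-192-5p and miR-215-5p in any library. The reads were aligned with the default options of BWA, and how the counting assigned reads that could fit both miRNAs was not given in the sources used here, so its few reads remain uncertain beside so close a relative.

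**Figure D3:**
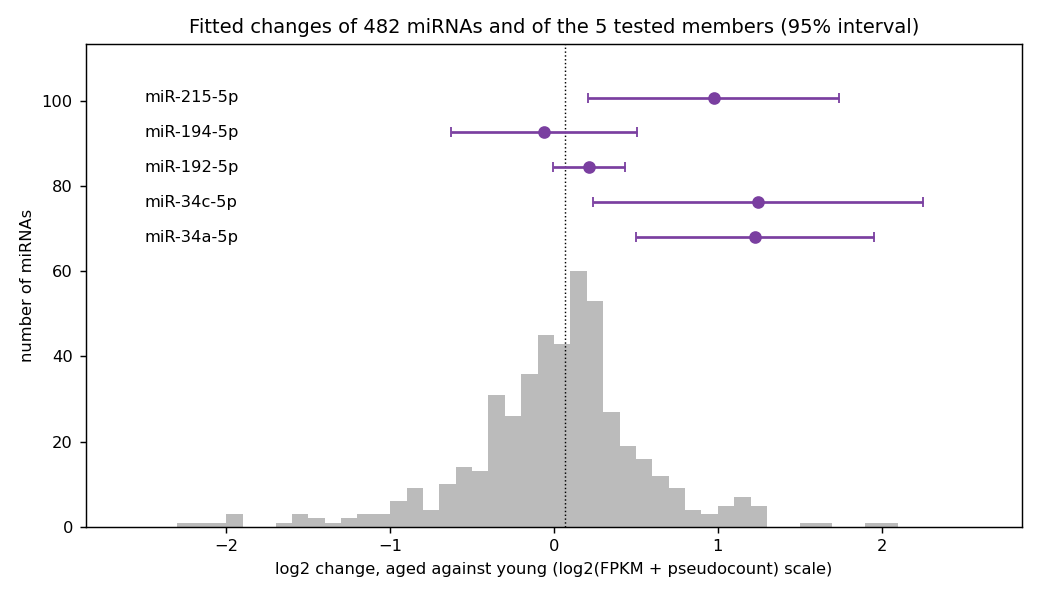
Fitted log2 change, aged against young (horizontal axis), of the 482 miRNAs tested (grey, number of miRNAs per bin of 0.1, median dotted) and of the 5 tested members (purple points, bars for the 95% interval). miR-34a-5p, miR-34c-5p and miR-215-5p sit at 1.23, 1.25 and 0.97, with intervals above 0, whereas those of miR-192-5p and miR-194-5p include 0.

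The order of the members by level changed at one place. In young muscle it ran miR-192-5p, miR-194-5p, miR-34a-5p, miR-34c-5p and miR-215-5p. In aged muscle miR-34a-5p and miR-194-5p had changed places. miR-194-5p was above miR-34a-5p in 6 of 6 young libraries, and miR-34a-5p was above miR-194-5p in 6 of 6 aged libraries. The ratio of miR-34a-5p to miR-194-5p was 0.167 to 0.917 (median 0.627) in young and 1.05 to 3.01 (median 1.33) in aged muscle. Over all libraries of an age the levels of both overlapped. They were 152 to 1098 (miR-34a-5p) and 882 to 1931 FPKM (miR-194-5p) in young, and 1243 to 2272 and 755 to 1510 FPKM in aged muscle. Within each library their exact 95% Poisson intervals overlapped too, so the order in any single library is within counting error. In aged replicate 3, the deepest, miR-194-5p had 199 reads (22.2 to 29.5 RPM) and miR-34a-5p 212 (23.8 to 31.2 RPM). Among the 481 other miRNAs tested 0.208% (1 miRNA, miR-34a-5p itself) had a ratio to miR-194-5p that was higher in every aged than in every young library. This comparison was chosen after the values were seen and carries no test. By FPKM miR-34a-5p stayed above miR-34c-5p in all 12 libraries, by 1.05 to 11.6 times in young and 2.10 to 10.3 times in aged muscle. The ratio of 1.05, in young replicate 3, came from 1 read of each and only from the scaling to length, so the reads there do not order them. miR-194-5p was above miR-34c-5p in 6 of 6 young and 5 of 6 aged libraries, with aged replicate 5 the exception.

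Summed over the 5p arms, the miR-34 family was at 297 to 1284 FPKM (median 880) in young and 1600 to 3355 FPKM (median 1854) in aged muscle. miR-34a-5p made up 51.2 to 92.0% of the sum in young and 67.7 to 91.1% in aged libraries, so the sum largely repeats its values. The lowest young sum, in replicate 3, rests on 1 read each of miR-34a-5p and miR-34c-5p. The relatives with the same seed added almost nothing: miR-449a-5p had 1 read in 1 young library, miR-449c-5p 1 read in 1 aged library and miR-449b 0. All 8 members together took 0.0628 ± 0.00502% (SD, n = 6) of the summed FPKM of young libraries and 0.0729 ± 0.00657% (SD, n = 6) of that of aged ones.

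Whether members rose and fell together from animal to animal was asked for the pairs that lie side by side or share a family. For miR-34a-5p and miR-34c-5p Pearson's r over 12 libraries was 0.57 (permutation p = 0.0562, adjusted over 2 pairs 0.112) and Spearman's rho 0.66 (p = 0.0216, adjusted 0.0431). After centring within age r was 0.15 (permutation p = 0.633), so the relation did not hold within the ages. Without young replicates 2 and 3, the farthest from the median of miR-34a-5p, the pooled r was 0.85 (permutation p = 0.00252, adjusted 0.00504). For miR-192-5p and miR-194-5p r was -0.41 (permutation p = 0.181, adjusted 0.181) and rho -0.36 (p = 0.247). After centring r was -0.53 (permutation p = 0.0766, adjusted 0.153) and rho -0.63 (permutation p = 0.0313, adjusted 0.0626). Without the 2 libraries farthest from the median of miR-192-5p, which were the deepest pair, the pooled r was -0.51 (permutation p = 0.130). The pair of miR-34c-5p and miR-34b-3p could not be tested, because miR-34b-3p was above 0 in 3 libraries only.

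Among the 212 miRNAs outside the members that were above 0 in all 12 libraries, those that followed a member most closely after centring within age were also listed. They were ordered by Pearson's r, as a description over libraries that share depth and scaling. For miR-34a-5p they were miR-155-5p (r = 0.84, Spearman's rho 0.61), miR-29b-3p (0.78, rho 0.83) and miR-30d-5p (0.78, rho 0.55). Its value in young replicate 3, which enters these correlations, was a single read. For miR-34c-5p they were miR-350-5p (0.84), miR-148b-5p (0.70) and miR-150-5p (0.67). For miR-192-5p they were miR-434-3p (0.77), miR-15b-5p (0.75) and miR-181a-2-3p (0.70), and for miR-194-5p miR-125b-2-3p (0.85), miR-140-3p (0.84) and miR-130a-3p (0.78).

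None of the other listed miRNAs of the p53 pathway passed the test. Of 11 miRNAs listed as induced or processed through p53, 7 could be tested and 0 passed, 6 with a fitted change above 0 and 1 below, with a median log2 change of 0.07, beside 0.07 for all miRNAs tested. miR-145a-5p, best known from smooth muscle, was at -0.43 (adjusted p = 0.0975 by limma). Its cluster partner miR-143-3p was at 0.17, miR-107-3p at 0.20 and miR-16-5p at 0.02. Of 4 miRNAs known to bind the mRNA of p53 itself, 0 passed, and miR-25-3p had the smallest adjusted p, 0.0996 by limma, at a log2 change of 0.38. The other 3 were miR-125b-5p at 0.12, miR-30d-5p at -0.01 and miR-504-5p at -0.49. For miR-25-3p every aged library (15826 FPKM or more) was above every young one (15500 FPKM or less).

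The tissue sources in which the members are best known were looked for in the same libraries. miR-122-5p, which defines hepatocytes, was at 0 in all young libraries and at most 34.3 FPKM in aged ones. Of 7 epithelial miRNAs, 7 were detected somewhere but only 1, miR-203-3p, in all 12 libraries, and their summed level was 458 to 1567 FPKM in young and 1136 to 2637 FPKM in aged muscle. Of the 2 that could be tested, miR-203-3p was at 0.72 (adjusted p = 0.215 by limma) and miR-141-3p at 0.83 (adjusted p = 0.478). In FPKM miR-192-5p alone was above the summed epithelial list in every library, which by itself does not give its source. The part of epithelial cells in the values of miR-192-5p, miR-194-5p and miR-215-5p was not tested. The summed level of 5 blood cell miRNAs was 11182 to 15813 FPKM in young and 8425 to 19727 FPKM in aged muscle, ranges that overlap. Of the 6 muscle miRNAs 1 passed, miR-206-3p, known from regenerating and slow fibres, which rose with age at a log2 change of 1.54 (adjusted p = 0.0296 by limma). Of the others, miR-208b-3p was at 1.29, miR-499-5p at 0.79, miR-1a-3p at 0.17, miR-133b-3p at -0.11 and miR-133a-3p at -0.17. The part of muscle fibre types in the values of the members was not tested.

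**Figure D4:**
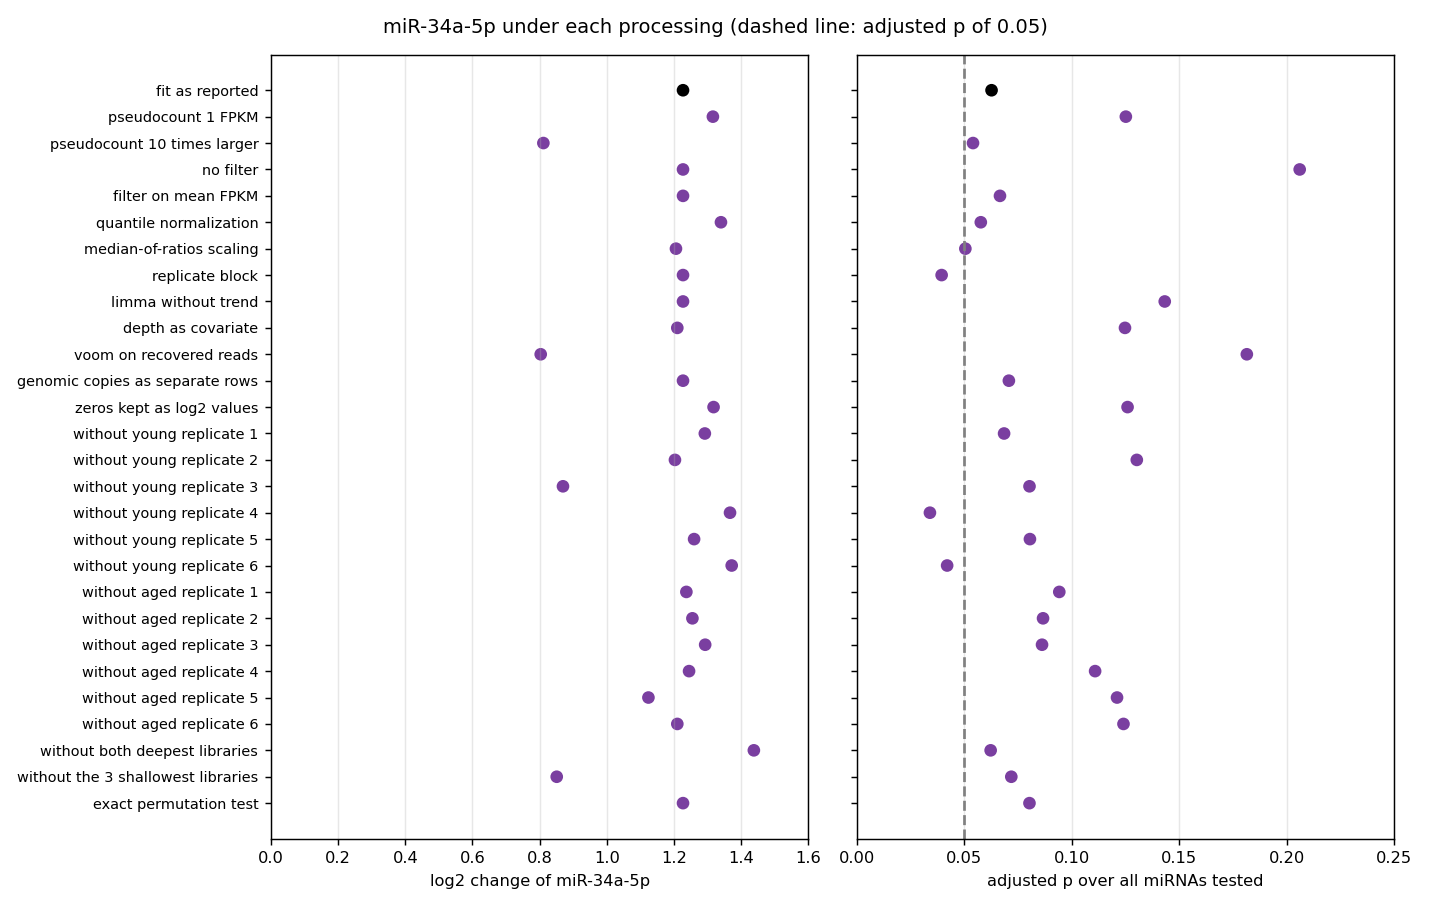
Fitted log2 change (left) and adjusted p (right) of miR-34a-5p under the reported fit (black) and each of 27 alternative processings or left-out libraries (purple), named on the vertical axis, with a dashed line at an adjusted p of 0.05. The change stays between 0.80 and 1.44, and 3 of the 27 points lie left of the line.

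The log2 change of miR-34a-5p ran from 0.80 to 1.44 over the alternatives. Its adjusted p ran from 0.0339 to 0.206 by limma and the exact permutation test. Alternatives that altered only the filter, the variance model or the test left the change at 1.23 by construction, so the 2 ranges are not compared. On the recovered reads with limma voom the log2 change was 0.80 with an adjusted p of 0.181. For miR-34c-5p the adjusted p ran from 0.0742 to 0.359 over 26 alternatives, and 0 of them passed.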

How the data were processed

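Small RNA was extracted with the mirVana kit and sequenced from 6 young and 6 aged muscles. The authors trimmed adaptors, aligned reads with BWA to mm10 (the submitters' processing notes name TopHat2), derived FPKM per mature miRNA (miRBase 20) and deposited log2 of FPKM. A 0 stands for no read. Use of strand and of reads with several matches was not given in the sources used here.

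The log2 was undone and genomic copies were summed. The members and lists were chosen with earlier results of these data known. Named are the members, their other arms, the listed miRNAs and, for each member seen in all libraries, its 3 most similar miRNAs outside the members. Levels were fitted with limma 3.58.1 (lmFit, eBayes with trend, two-sided) in R 4.3.3, without covariates, with a pseudocount of 48.2 FPKM, the median smallest value above 0. Single values and relations were tested by permutation (SciPy 1.17.1, Python 3.11.15), with 100000 resamples for relations. Reads were recovered from the steps of the values: 98.9% of 3590 low values (fewer than 25 reads) came within 0.15 of an integer. Alternatives concerned pseudocount, filter, scaling, variance model, test, covariate, recovered reads, copies, zeros, replicate block and each library; leaving out the deepest pair and the 3 shallowest was added after seeing the data. Coordinates are from RefSeq and hosts from GENCODE M21.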

Additional observations from a re-analysis of the deposited data

Results flagged for a closer look

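In 5 of the 15 sets of 6 libraries of one age looked at for the members, 1 library was set apart by its gap to the remaining ones, relative to their range (Dixon's criterion). Values here are log2(FPKM + 48.2), on which no read gives 5.59. miR-34a-5p in young replicate 3 was at 7.65 (1 read), below the other young libraries at 9.31 to 10.16. Chance would give about 0.75 such sets if all 15 could be judged, and fewer without the 4 that cannot. Only this 1 can be read against that smaller number. In the other 4 sets the remaining 5 libraries had no read, so any read sets a library apart by construction. These were miR-34b-5p in young replicate 6 at 5.78 (1 read), miR-34b-3p in young replicate 6 at 5.79 (1 read), miR-34c-3p in aged replicate 6 at 6.87 (2 reads) and miR-215-5p in young replicate 6 at 6.52 (6 reads). Young replicate 6 is the deepest young library.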

How the results depend on the processing

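Over all miRNAs tested the fit called 14. It called 6 with a pseudocount of 1 FPKM, 6 with zeros kept as log2 values, 7 without a filter, and 8 with a filter on the mean FPKM, with depth as a covariate or without the 3 shallowest libraries. The exact permutation test called 0 after adjustment and 66 at an unadjusted p under 0.05 (62 by limma), and limma voom on recovered reads called 14. Leaving out 1 library gave 6 to 16 calls over all miRNAs and 0 to 1 among the members. Equal replicate numbers did not pair the libraries (correlations of -0.094 to 0.095, 0 of 6 young libraries closest to their own number). With a replicate block 1 member was called, miR-34a-5p, at an adjusted p of 0.0394 by limma. At the study's thresholds 1 member passed instead of 3, miR-34a-5p, with 10 times the pseudocount and with the filter on the mean, which left miR-34c-5p and miR-215-5p untested. With limma voom on recovered reads 2 passed, without miR-215-5p, and likewise without both deepest libraries, where miR-215-5p was not tested. The log2 change of miR-194-5p, -0.06 as reported and -0.153 to 0.087 with 1 library left out, reversed to 0.087 without young replicate 4, 0.0387 without aged replicate 5 and 0.149 without the 3 shallowest libraries. The relation of miR-34a-5p with miR-34c-5p passed by Pearson's r only without the 2 farthest libraries (r = 0.85). By Spearman's rho it passed in the reported form and with a pseudocount of 1 FPKM (adjusted permutation p = 0.0431 in both), but not without those 2 libraries (0.0528). Under the alternatives that gave a value, miR-34a-5p, miR-34c-5p, miR-192-5p and miR-215-5p kept a higher fitted level in aged muscle. The alternatives for arm balance were not run, because no member hairpin could be tested. The cause of these shifts was not tested. Depth limits every member but miR-192-5p.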
